A study of Mus musculus with 30 samples.

Results

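The messenger RNAs of 8 genes for matricellular and contractile response proteins, Ctgf, Cyr61, Nov, Wisp1, Wisp2, Thbs1, Ankrd1 and Edn1, were followed in mouse embryonic fibroblasts (MEFs) under stress. The genes were chosen by name. They are 8 of the 21689 named genes on the array and are read by 11 of its 33453 named probes, with 4 probes for Thbs1 and 1 for every other member. The study compared the response of the cells to agents that activate the stress kinase p38, and asked how much of it depends on p38α, using a chemical inhibitor and knock out cells.

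Matricellular proteins are secreted into the matrix without building it, and they tune adhesion, migration and growth factor signals through integrins and other receptors. The CCN family, to which Cyr61, Ctgf, Nov, Wisp1 and Wisp2 belong, shares a modular architecture, and Cyr61 and Ctgf are standard immediate early genes of fibroblasts and standard readouts of the co-activators YAP and TAZ acting through TEAD factors. Thbs1 codes for thrombospondin, an activator of latent TGF-β. Ankrd1 codes for a mechanically responsive ankyrin repeat protein of the nucleus and the sarcomere that is also a YAP/TAZ target, and Edn1 codes for the precursor of endothelin, a peptide that contracts smooth muscle and fibroblasts through its receptors.

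Total RNA of 30 samples was hybridised to 2-colour Agilent 44K arrays, 2 arrays for each of 15 groups, each carrying the labelled RNA of 1 sample (Cy5) beside RNA pooled from 2 wild type cultures without treatment (Cy3). Immortalised wild type MEFs were given 25 ng/ml anisomycin for 45 min, 100 ng/ml TNFα for 45 min, or 100 mM NaCl for 45 min, 2 h or 8 h, each with and without the p38 inhibitor SB203580, and 1 group received SB203580 alone. Immortalised MAPK p38alfa knock out MEFs were left untreated or were given anisomycin or TNFα for 45 min or NaCl for 2 h. All cells were growing exponentially, and every array, knock out arrays included, was set against the wild type pool. SB203580 was added at 10 µM 30 min before the stress in the treatment protocol, whereas the sample titles give 10 mM and 2 h. How many independent lines stand behind each genotype is not given in the sources used here. No dyes were swapped, so that an effect of the dyes on a probe is part of its ratio. All values below are log2 ratios of a sample to the pool, or differences of such ratios. No untreated wild type sample had an array of its own, so that a ratio tested against 0 leaves out the spread of the control.

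The label of the knock out arrays was checked first. Mapk14, the gene of p38α (chr17:28691342-28748405, GRCm38.p6), lay between -2.24 and -0.94 (median -1.20) on the 8 knock out arrays and between 0.03 and 1.31 (median 0.33) on the 22 wild type arrays, without overlap. All 10 fibroblast markers examined were well above background on all 30 arrays. This does not set the cells apart from other types, since the same held for all 4 macrophage, all 4 epithelial and all 5 muscle markers and for 3 of 4 endothelial markers. The member probes were well above background in both channels of all 30 arrays, except that of Wisp2, which passed in Cy5 on 28, and none was saturated.

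The scanner software marked from 6.78% to 44.8% of the spots of an array (median 16.0%) as non-uniform or outlying, and the members were hit unevenly. The spot was marked on 16 of 30 arrays for Cyr61, 11 for Ctgf, 4 for Wisp1, 2 for Ankrd1, 1 for Edn1 and none for Nov and Wisp2, and on 20, 17, 2 and 0 arrays for the 4 Thbs1 probes. All of these marks were for non-uniformity. Marked spots were left out of the first limma fit. A gene then had a test only where both arrays of every group in a comparison were left, which gave Cyr61 none of 34 comparisons, Ctgf 6, Wisp1 17, Ankrd1 26, Edn1 27 and the other members 34. A second fit kept the marked spots, and for both fits a paired form was run with the replicate number as a block within each genotype, because arrays with the same number deviated together. A value is said to have risen or fallen where its Benjamini-Hochberg adjusted p in limma, over all genes with a test, was under 0.05, and the fit is named. The replicates are biological by the methods, and unpaired p-values measure the spread between these cultures and arrays. The block leaves each mean unchanged and takes the shared difference between first and second arrays out of the error. That difference cancels where groups of the same genotype are subtracted from each other. It does not cancel against the pool, between genotypes or in differences of gain. Paired p-values there leave out that part of the spread. In RNA of whole cultures, fewer cells of a kind and less RNA per cell cannot be told apart.

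The bases before the start site were held for 3 members, Cyr61, Edn1 and Ankrd1, by a RefSeq promoter table (GRCm38.p6), and they are shown because these genes were among the ones with the higher ratios. The 250 bases before the annotated start are given 5′ to 3′ on the strand of the gene, and capitals mark GGAATG or its complement CATTCC, the core hexamer that TEAD factors recognise. The Cyr61 window is chr3:145649986-145650235 on the minus strand, that of Ankrd1 is chr19:36119845-36120094 on the minus strand, and that of Edn1 is chr13:42301226-42301475 on the plus strand.
Cyr61: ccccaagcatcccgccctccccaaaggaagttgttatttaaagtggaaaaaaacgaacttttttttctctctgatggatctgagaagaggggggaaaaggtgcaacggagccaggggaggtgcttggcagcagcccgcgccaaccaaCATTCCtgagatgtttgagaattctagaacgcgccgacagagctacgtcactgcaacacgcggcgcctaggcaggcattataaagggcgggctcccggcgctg
Ankrd1: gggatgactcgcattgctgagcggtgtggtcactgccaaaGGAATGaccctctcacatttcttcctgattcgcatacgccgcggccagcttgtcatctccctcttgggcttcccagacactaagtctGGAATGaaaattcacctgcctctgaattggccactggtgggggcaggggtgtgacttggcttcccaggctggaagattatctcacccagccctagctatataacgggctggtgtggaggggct
Edn1: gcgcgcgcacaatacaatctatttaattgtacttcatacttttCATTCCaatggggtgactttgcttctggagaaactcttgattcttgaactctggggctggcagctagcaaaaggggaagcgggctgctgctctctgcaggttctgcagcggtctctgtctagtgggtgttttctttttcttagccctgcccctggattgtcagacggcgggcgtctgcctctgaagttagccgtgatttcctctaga
The hexamer occurred in all 3 windows, at bases -103 to -98 before the Cyr61 start, at -207 to -202 before that of Edn1, and at both -210 to -205 and -123 to -118 before that of Ankrd1. Of 32851 windows of the same length in the table, 12.6% held the hexamer on either strand and 1.02% held it at 2 or more positions. The AP-1 heptamer TGANTCA, the CArG box of serum response factor and the tonicity element TonE were in none of the 3 windows, and in 6.75%, 1.47% and 4.31% of all windows. No motif overlapped another in these windows.

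Stress raised a subset of the members in wild type cells. In the fit without marked spots, 1 of 6 tested members was higher than the pool after anisomycin, against 5.72% of all genes tested, and 1 of 5 after TNFα, against 5.25%. In NaCl the counts were 2 of 5 members at 45 min against 4.69% of genes, 1 of 7 at 2 h against 5.24%, and 1 of 6 at 8 h against 11.0%. Edn1 was the member called in every one of these groups, and Wisp1 was called beside it at 45 min of NaCl. With the marked spots kept, 3 of 8 members were called higher after anisomycin (6.51% of genes), 4 of 8 after TNFα (6.10%), 3 of 8 at 45 min of NaCl (5.01%), 2 of 8 at 2 h (7.25%) and 2 of 8 at 8 h (10.4%). Beside Edn1 these were Ctgf and Cyr61 in anisomycin, Cyr61, Thbs1 and Wisp1 in TNFα, Cyr61 and Wisp1 at 45 min of NaCl, Cyr61 at 2 h and Wisp1 at 8 h. No member was called lower than the pool in these 5 groups in either fit. In the paired form, which leaves the shared difference between first and second arrays out of the error, more genes passed on the whole array. The shares higher, in the same order, were 11.0%, 9.56%, 11.1%, 8.94% and 14.3% without marked spots and 10.6%, 9.67%, 9.44%, 11.4% and 13.6% with them. The members called numbered 2 of 6, 2 of 5, 2 of 5, 4 of 7 and 1 of 6, and 4, 5, 4, 5 and 2 of 8.

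As a measure of size, means of at least 2.5-fold were counted. With the marked spots kept, Ctgf and Cyr61 were past it in anisomycin, 2 of 8 members against 0.475% of genes. Cyr61 and Edn1 were past it in TNFα (0.447% of genes), at 45 min of NaCl (0.290%) and at 2 h of NaCl (0.521%), and Edn1 was the 1 member past it at 8 h of NaCl (0.881%). These are descriptions of means of 2 arrays.

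Cyr61 (Ccn1, chr3:145646971-145649985), a secreted ligand of integrins, had its highest ratios in anisomycin, 3.47 and 3.39 on the 2 arrays, both from marked spots. In NaCl it stood at 2.59 (marked) and 1.81 after 45 min, at 2.65 and 2.58 (marked) after 2 h, and at -0.13 and 0.46 (marked) after 8 h, and in TNFα at 1.62 and 1.74 (marked). Each stressed array of 45 min or 2 h thus lay above both arrays of 8 h. In the fit that kept marked spots, Cyr61 rose in anisomycin (3.43 ± 0.40 SE, adjusted p = 1.54e-05), TNFα (1.68, adjusted p = 0.00593), NaCl at 45 min (2.20, adjusted p = 0.00112) and NaCl at 2 h (2.61, adjusted p = 0.000278, n = 2 arrays each, limma). The call in TNFα was lost without either array (adjusted p = 0.0603 and 0.126), and that at 45 min of NaCl without its first array (1.81, adjusted p = 0.104).

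Ctgf (Ccn2, chr10:24595442-24598683), the profibrotic relative of Cyr61, was also highest in anisomycin, at 3.08 and 2.89, again from marked spots. Its other stressed arrays were at 0.93 and 0.45 (marked) in TNFα, at 1.30 and 0.44 (both marked) after 45 min of NaCl, at 1.52 and 1.07 after 2 h, and at -0.00 and 0.25 after 8 h. Both anisomycin arrays lay above all the other stressed arrays of wild type cells. Ctgf rose in anisomycin in the fit with marked spots kept (2.99 ± 0.64 SE, limma adjusted p = 0.00225), a call that was lost without the first array (2.89, adjusted p = 0.0841). After 2 h of NaCl, where no spot was marked, the mean of 1.29 missed the threshold in the unpaired fit (adjusted p = 0.135) and passed it in the paired one (adjusted p = 0.00485, with 8.94% of genes higher). The paired fit with marked spots kept also placed Ctgf above the pool at 45 min of NaCl (0.87, adjusted p = 0.0255). The errors of these fits take in the knock out arrays. With marked spots kept, the SD of a pair of arrays was 0.96 to 2.25 there, against at most 0.75 in wild type cells.

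**Figure D1:**
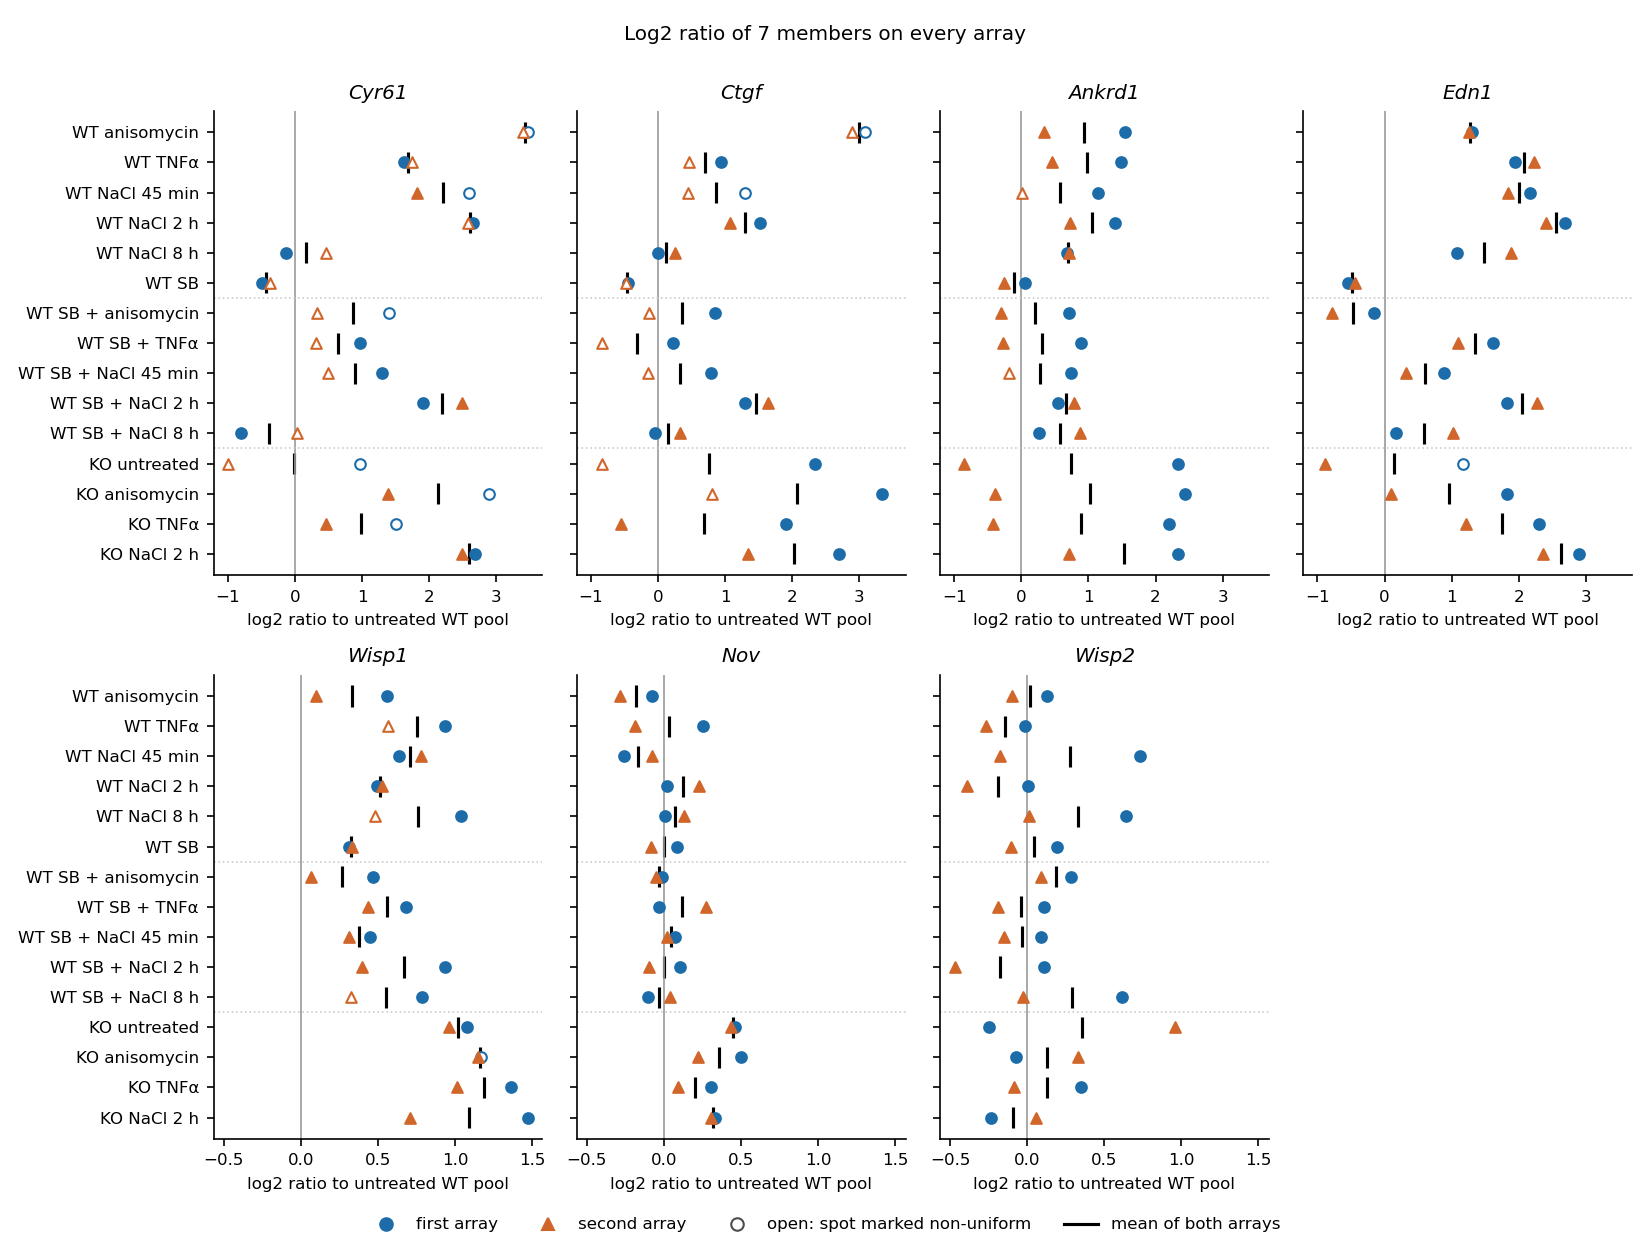
Log2 ratio to the untreated wild type pool (horizontal axis) of 7 members in the 15 groups (vertical axis), with first arrays as circles, second arrays as triangles, marked spots open and the mean of both arrays as a bar. Cyr61 reaches 3.47 and Ctgf 3.08 in wild type cells in anisomycin, and the first knock out arrays of Ankrd1 and Ctgf lie to the right of the second ones in all 4 knock out groups.

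Edn1 (chr13:42301476-42307990), the ligand of the endothelin receptors, was above the pool on all 10 stressed wild type arrays. Its ratios were 1.30 and 1.25 in anisomycin, 1.94 and 2.22 in TNFα, and 2.16 and 1.84, 2.69 and 2.41, and 1.07 and 1.88 after 45 min, 2 h and 8 h of NaCl. All 5 groups differed from the pool in the fit without marked spots, with means of 1.28 (adjusted p = 0.0189), 2.08 (0.000868), 2.00 (0.00155), 2.55 (0.000128) and 1.48 (0.00348), each ± 0.33 SE by limma. Edn1 and Cyr61 thus differed in their order of stresses, with anisomycin lowest among the means of Edn1 and highest among those of Cyr61, and this difference between genes was not tested. Taking single arrays away ended the call in anisomycin without either array (adjusted p = 0.235 and 0.116), in TNFα without the second array (1.94, adjusted p = 0.059), at 45 min of NaCl without the first (1.84, adjusted p = 0.0569) and at 8 h without the second (1.07, adjusted p = 0.164).

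Ankrd1 (chr19:36111965-36119844), the ankyrin repeat protein, was above the pool on all 10 stressed wild type arrays, but its pairs of arrays lay far apart. They were at 1.54 and 0.34 in anisomycin, 1.49 and 0.46 in TNFα, 1.14 and 0.01 (marked) after 45 min of NaCl, 1.39 and 0.73 after 2 h, and 0.68 and 0.72 after 8 h. The means of 0.94, 0.97 and 1.06 in anisomycin, TNFα and 2 h of NaCl did not pass in the unpaired fit (adjusted p = 0.422, 0.431 and 0.378, ± 0.72 SE). The error behind this SE is shared by all groups, knock out groups included. The SD of a pair of arrays was 1.15 to 2.25 in the knock out groups, against 0.03 to 0.85 in the wild type groups. With the shared difference between first and second arrays as a block, the same means passed (adjusted p = 0.0355, 0.033 and 0.0244, ± 0.29 SE). The block took that difference out of the error, so these p-values do not measure how far the arrays of a pair lay apart.

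Thbs1 (chr2:118111876-118127133) had 4 probes that disagreed, so that its mean over probes is of little use, and the probes are given one by one. Without marked spots, that mean is over the probes left on each array, and these differ between arrays. Probe A_52_P363951 was at 1.38 (marked) and 1.40 in anisomycin, 2.00 and 1.58 (marked) in TNFα, 0.64 and 0.30 (marked) after 45 min of NaCl, 1.42 and 1.14 after 2 h, and 0.65 and 0.58 (marked) after 8 h. All 10 of these values were above 0. Fitted by itself, it rose in every one of these groups where marked spots were kept, with adjusted p-values of 1.31e-05 in anisomycin (mean 1.39), 1.1e-06 in TNFα (1.79), 0.0455 at 45 min of NaCl (0.47), 3.58e-05 at 2 h (1.28) and 0.00812 at 8 h (0.62), in limma over all named probes. Without marked spots the 1 group with a test, 2 h of NaCl, also passed (adjusted p = 0.0103).

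The other Thbs1 probes did not follow it. A_52_P337092, which was never marked, was below the pool on 8 of the 10 stressed wild type arrays and fell at 45 min of NaCl (-1.22 and -0.81, mean -1.02, adjusted p = 0.0079), and A_52_P337086 was below the pool on all 10. A_51_P293401 stayed between -0.45 (marked) and 0.09. The first 3 probes carry the accession of the Thbs1 messenger RNA, and A_51_P293401 that of another complementary DNA clone. Which stretch of the transcript each probe reads was not examined here.

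**Figure D2:**
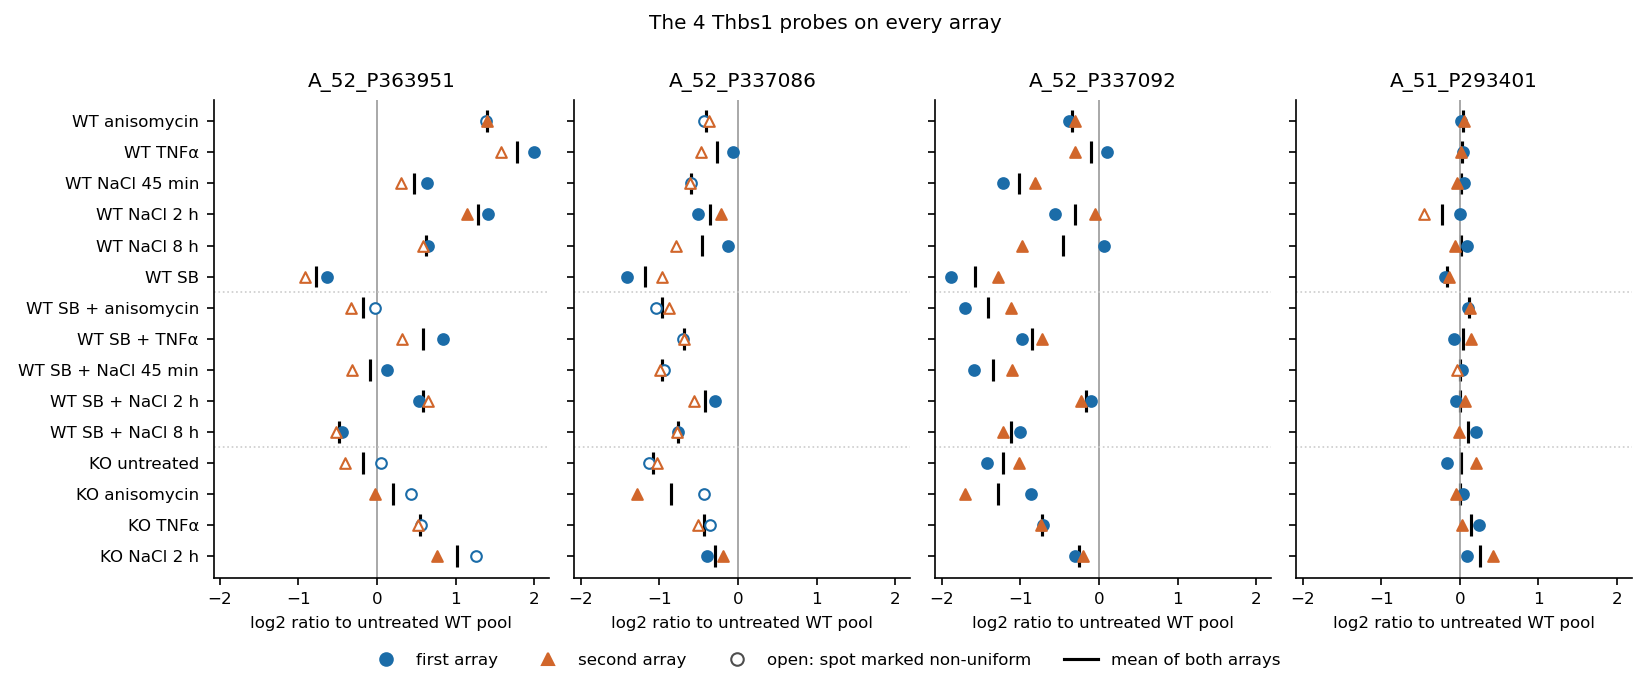
Log2 ratio to the pool (horizontal axis) of the 4 Thbs1 probes in the 15 groups (vertical axis), with first arrays as circles, second arrays as triangles, marked spots open and the mean as a bar. A_52_P363951 reaches 2.00 in TNFα, where A_52_P337092 has 0.11 and -0.30, while SB203580 alone lies below 0 on all 4 probes.

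The remaining CCN genes moved little. Wisp1 (Ccn4, chr15:66891369-66923201), a Wnt inducible member, was above the pool on all 22 wild type arrays, with a range from 0.06 to 1.04. These include SB203580 without stress, at 0.31 and 0.34. Without a dye swap or an untreated wild type array, the part of a fixed offset of the probe in these ratios was not tested. Wisp1 was called above the pool at 45 min of NaCl (0.64 and 0.78, mean 0.71 ± 0.17 SE, adjusted p = 0.02), a call lost without either array. With marked spots kept it was also called in TNFα (0.75, adjusted p = 0.00581) and at 8 h of NaCl (0.76, adjusted p = 0.00392), both lost without the first array (0.57 and 0.48). In the paired fit it passed at 2 h of NaCl as well (0.51, adjusted p = 0.0191 against 0.0787 unpaired).

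Nov (Ccn3, chr15:54745910-54753762), a CCN protein associated with growth restraint, stayed between -0.28 and 0.27 on the wild type arrays. Wisp2 (Ccn5, chr2:163820752-163833146), the CCN protein that lacks the carboxy-terminal module, ranged from -0.47 to 0.73 on them. Wisp2 passed in none of its 34 comparisons in the fit without marked spots (smallest adjusted p = 0.384, in untreated knock out cells, where its arrays were at -0.25 and 0.96), nor in the fit that kept them (0.328) or in the paired forms (0.164 and 0.133). Its first array was above its second in all 11 wild type groups.

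Over time in NaCl, Cyr61 fell between 2 h and 8 h. In the fit with marked spots kept, 1 of 8 members was lower at 8 h than at 2 h (4.59% of genes) and 1 of 8 lower at 8 h than at 45 min (3.74%), Cyr61 in both, with differences of -2.45 ± 0.57 SE (adjusted p = 0.0107) and -2.04 ± 0.57 SE (adjusted p = 0.0315). Both calls were lost when an array was left out, the first without either 2 h array or the first 8 h array (adjusted p from 0.0544 to 0.11) and the second without any of its 4 arrays (adjusted p from 0.0608 to 0.267). In the fit without marked spots, none of 15 tests on NaCl over time passed, and 1 had an unadjusted p under 0.05. Ctgf fell by 1.17 between 2 h and 8 h in the paired fit (adjusted p = 0.0362, against 0.429 unpaired), the 1 of 6 tested members called lower there, against 6.45% of genes. The Edn1 mean was 1.07 lower at 8 h than at 2 h, and this did not pass (adjusted p = 0.209).

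**Figure D3:**
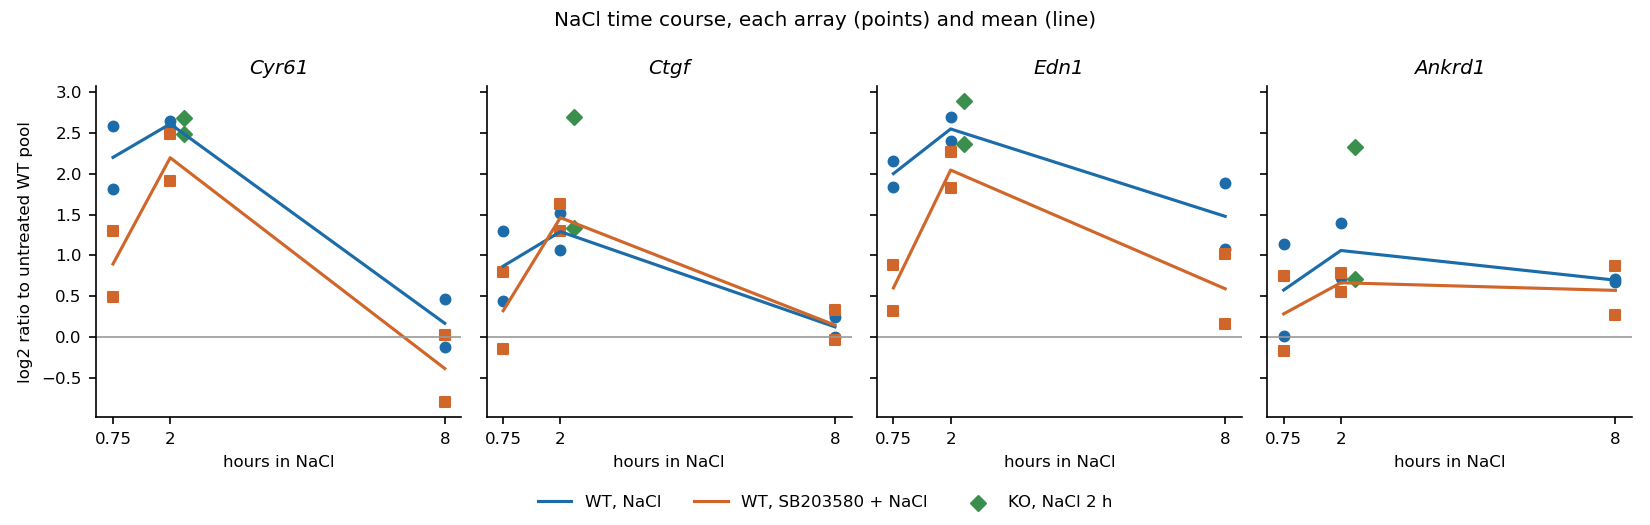
Log2 ratio to the pool (vertical axis) against hours in NaCl (horizontal axis, linear) for Cyr61, Ctgf, Edn1 and Ankrd1, with each array as a point and the mean as a line, for NaCl alone, SB203580 with NaCl, and knock out cells at 2 h (diamonds, drawn slightly to the right). Cyr61 and Ctgf are near 0 at 8 h, at means of 0.17 and 0.12, whereas the mean of Edn1 is 1.48.

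Between the stresses of 45 min, no member differed in the fit without marked spots (0 of 14 tests, 0 at an unadjusted p under 0.05) or in the fit that kept them (0 of 24, with 6 at an unadjusted p under 0.05). In the paired fit with marked spots kept, Ctgf was higher in anisomycin than in TNFα (2.29 ± 0.38 SE, adjusted p = 0.00874) and than in NaCl (2.12 ± 0.38 SE, adjusted p = 0.0157), 1 of 8 members in each case against 0.175% and 0.424% of genes. For the single Thbs1 probe A_52_P363951, TNFα was above NaCl at 45 min (1.31, adjusted p = 0.0126, marked spots kept), and no other Thbs1 probe passed there.

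With SB203580 alone, Thbs1 was the member called lower than the pool. In the fit without marked spots 1 of 6 tested members was lower than the pool, against 11.8% of genes, with a Thbs1 mean of -0.87 ± 0.19 SE (limma adjusted p = 0.00345). That mean is over all 4 probes on the first array and over A_52_P337092 and A_51_P293401 on the second. The call was lost without the first array (-0.71, adjusted p = 0.179). Wisp1 passed in the paired fit with marked spots kept (0.32, adjusted p = 0.0472, against 0.158 unpaired), 1 of 8 members higher where 17.8% of genes were. All 4 probes were below the pool on both arrays, at -0.64 and -0.91 (marked) for A_52_P363951, -1.41 and -0.96 (1 marked) for A_52_P337086, -1.89 and -1.28 for A_52_P337092, and -0.19 and -0.14 for A_51_P293401. Cyr61 (-0.50 and -0.38, marked), Ctgf (-0.45 and -0.48, marked) and Edn1 (-0.54 and -0.44) were also below the pool on both arrays and did not pass (adjusted p = 0.404 and 0.584 with marked spots kept, and 0.287 without).

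Under stress, the ratios of several members were lower with the inhibitor on every pair of arrays. With SB203580, Cyr61 was lower in all 10 pairs of arrays with the same stress and replicate number, Edn1 in 10 and the mean of the Thbs1 probes in 10. Wisp1 was lower in 9, Ctgf and Ankrd1 in 8 and Nov and Wisp2 in 4. The single Thbs1 probes were uneven. In anisomycin A_51_P293401 was higher with the inhibitor (0.10 and 0.13 against 0.02 and 0.06), and A_52_P363951 lower (-0.03 and -0.33 against 1.38 and 1.40). How many of all genes were lower in every pair is not given here. In anisomycin, Cyr61 had 1.41 and 0.33 (both marked) with the inhibitor against 3.47 and 3.39 without, Ctgf 0.84 and -0.14 (marked) against 3.08 and 2.89, and Edn1 -0.15 and -0.78 against 1.30 and 1.25. The arrays with and without the inhibitor did not overlap for these genes, and the share of all genes without such overlap is not given here. At 2 h of NaCl they were closer, with 1.91 and 2.49 against 2.65 and 2.58 for Cyr61, 1.30 and 1.63 against 1.52 and 1.07 for Ctgf, and 1.82 and 2.27 against 2.69 and 2.41 for Edn1.

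In the fit without marked spots none of 33 tests of stress with against stress without SB203580 passed, with 5 at an unadjusted p under 0.05, and the smallest adjusted p was 0.0892, for the mean of Edn1 over the 5 stresses (-1.05 ± 0.21 SE). That Edn1 difference passed in the paired fit (adjusted p = 0.00425), 1 of 4 tested members against 0.176% of genes lower. With marked spots kept, 1 of 8 members was lower on average over the 5 stresses (0.106% of genes), which was Thbs1 at -0.46 (adjusted p = 0.00998). The paired fit with marked spots kept also called Cyr61 (-1.18 ± 0.19 SE, adjusted p = 0.00761, against 0.122 unpaired), and had 3 of 8 members lower against 0.304% of genes. In anisomycin alone it called Ctgf (-2.63 ± 0.38 SE, adjusted p = 0.00796) and Cyr61 (-2.56 ± 0.43 SE, adjusted p = 0.0208), 2 of 8 members against 0.101% of genes. Neither member passed unpaired (adjusted p = 1 and 0.277). With marked spots kept, the Thbs1 probe A_52_P363951 was lower on average without pairing (-1.03 ± 0.10 SE, adjusted p = 8.77e-05), and in anisomycin alone (-1.57, adjusted p = 0.0063). No other Thbs1 probe passed in these comparisons in that fit. Their average differences were -0.34 for A_52_P337086 (adjusted p = 0.617), -0.53 for A_52_P337092 (adjusted p = 0.418) and 0.08 for A_51_P293401.

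**Figure D4:**
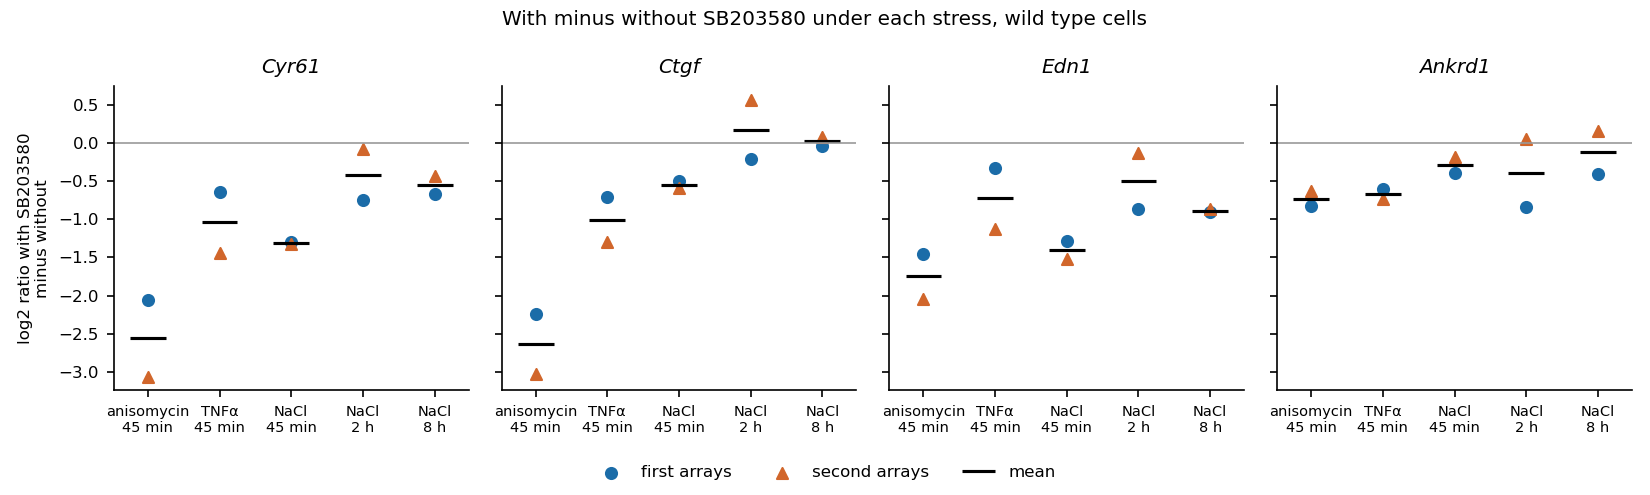
Log2 ratio with SB203580 minus that without (vertical axis) for the arrays of each stress (horizontal axis), first arrays as circles, second arrays as triangles and the mean as a bar, marked spots included. Cyr61 and Edn1 lie below 0 in all 10 pairs of arrays, and the means of Ctgf run from -2.63 in anisomycin to 0.17 at 2 h of NaCl.

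Because SB203580 alone moved some members, the gain over SB203580 alone was also set against the gain over the pool. In the paired fit with marked spots kept, the gain in anisomycin was smaller with the inhibitor for Ctgf (-2.17 ± 0.47 SE, adjusted p = 0.00963) and Cyr61 (-2.12 ± 0.52 SE, adjusted p = 0.0166), 2 of 8 members lower against 3.91% of genes, while the median of all genes in this comparison was 0.10. Neither passed unpaired (adjusted p = 0.211 and 0.0646), and Edn1 did not pass in any of the 4 fits. With SB203580 present, Edn1 was higher after 2 h of NaCl than with SB203580 alone (2.54 ± 0.47 SE, adjusted p = 0.00453), the 1 of 6 tested members called in the fit without marked spots, against 0.891% of genes. The fit that kept them had 3 of 8 higher (1.14% of genes), Cyr61 (2.63, adjusted p = 0.0144) and Thbs1 (0.93, adjusted p = 0.00227) beside Edn1. In the paired form of that fit 4 of 8 were (2.57% of genes), with Ctgf added (1.93, adjusted p = 0.00688, against 0.277 unpaired).

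Untreated knock out cells differed from the wild type pool in 3 members. In the fit without marked spots, 2 of 5 tested members were higher (8.02% of genes) and 1 of 5 was lower (6.96%). Wisp1 was called higher at 1.08 and 0.96 (mean 1.02 ± 0.17 SE, adjusted p = 0.00161), Nov at 0.46 and 0.43 (0.45 ± 0.11 SE, adjusted p = 0.00945), and Thbs1 lower by 0.60 (adjusted p = 0.0415). The Wisp1 call was lost without the first array (0.96, adjusted p = 0.0782), and those of Nov and Thbs1 without either (adjusted p = 0.193 and 0.0675, and 0.555 and 0.0681). Of the Thbs1 probes, A_52_P337092 was at -1.42 and -1.02 and A_52_P337086 at -1.13 and -1.03 (both marked), whereas A_52_P363951 was at 0.06 and -0.41 (both marked). The Thbs1 mean without marked spots thus rests on A_52_P337092 and on A_51_P293401 (-0.17 and 0.21). Ctgf passed in the paired fit with marked spots kept (0.76, adjusted p = 0.043, against 0.422 unpaired), where 3 of 8 members and 11.5% of genes were higher. Its arrays were at 2.34 and -0.83 (marked), of opposite sign, and the block takes the shared part of that spread out of the error.

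Nov and Wisp1 were above the pool on every knock out array. Nov had 0.09 to 0.50 on the 8 knock out arrays and Wisp1 0.71 to 1.47. On average over anisomycin, TNFα and 2 h of NaCl, 1 of 5 tested members was higher in knock out than in wild type cells (3.91% of genes), which was Nov (0.30 ± 0.09 SE, adjusted p = 0.0398). This call was lost without any of 8 of the 12 arrays (adjusted p from 0.0502 to 0.124). With marked spots kept, 2 of 8 were higher (7.65% of genes), Nov and Wisp1 (0.62 ± 0.15 SE, adjusted p = 0.0107), and 1 of 8 was lower (5.14%), Thbs1 (-0.35, adjusted p = 0.0183). In the paired form of that fit, the anisomycin comparison by itself called Wisp1 (0.83, adjusted p = 0.0137, against 0.124 unpaired) and Nov (0.54, adjusted p = 0.0427, against 0.0841 unpaired), 2 of 8 members higher against 2.81% of genes. The Thbs1 probe A_52_P363951 was lower in knock out cells in anisomycin (-1.19, adjusted p = 0.0111) and TNFα (-1.24, adjusted p = 0.0155), with marked spots kept. Its gain over untreated cells was smaller as well, with differences of -1.02 ± 0.28 SE (adjusted p = 0.0332) and -1.07 ± 0.28 SE (adjusted p = 0.0256). No other Thbs1 probe passed in these comparisons in that fit. Their differences in gain were 0.63 and 0.92 for A_52_P337086, 0.28 and 0.59 for A_52_P337092, and -0.06 and 0.09 for A_51_P293401. The paired form called the gain of A_52_P337086 in TNFα larger (adjusted p = 0.0445). At 2 h of NaCl neither the level of A_52_P363951 (-0.27, adjusted p = 0.62) nor its gain (-0.09, adjusted p = 0.866) passed.

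Cyr61, Edn1 and Thbs1 rose in knock out cells after 2 h of NaCl. Between untreated knock out cells and knock out cells after 2 h of NaCl, 3 of 8 members were higher with marked spots kept (0.705% of genes), namely Cyr61 by 2.60 ± 0.57 SE (adjusted p = 0.0287), Edn1 by 2.49 ± 0.57 SE (adjusted p = 0.0377) and Thbs1 by 0.80 (adjusted p = 0.0154). The Cyr61 and Edn1 calls were lost without the second untreated array (1.62 and 1.45, adjusted p = 0.17 and 0.196) or without either NaCl array (adjusted p = 0.0727 and 0.228, and 0.109 and 0.191). Without marked spots none of 14 tests within knock out cells passed, with 1 at an unadjusted p under 0.05. After 2 h of NaCl, Cyr61 had 2.68 and 2.49 in knock out cells against 2.65 and 2.58 in wild type cells. Edn1 had 2.89 and 2.37 against 2.69 and 2.41. For the mean of the Thbs1 probes, the paired fit with marked spots kept called the gain at 2 h of NaCl larger in knock out than in wild type cells (0.70, adjusted p = 0.0346), 1 of 8 members against 6.65% of genes, and larger with SB203580 than without (0.83, adjusted p = 0.0109), 1 of 8 against 11.5%, a share near that of all genes. The 4 probes were uneven here, from -0.09 to 1.27 and from 0.09 to 1.73.

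In anisomycin the gain of Ctgf was smaller in knock out cells in 1 of the fits. It was 1.00 and 1.64 over the untreated knock out array of the same number, against 3.08 and 2.89 over the pool in wild type cells. This difference in gain was -1.67 ± 0.47 SE in the paired fit with marked spots kept (adjusted p = 0.0296, against 0.379 unpaired), the 1 of 8 members called lower against 2.57% of genes, beside a median of all genes of 0.10. For Cyr61 the gains were 1.93 and 2.37 against 3.47 and 3.39, and for Edn1 0.64 and 0.98 against 1.30 and 1.25, and neither difference passed in any fit in which it had a test.

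The 2 arrays of each knock out group were far apart for Ankrd1, Ctgf, Edn1 and Cyr61. Ankrd1 was at 2.33, 2.44, 2.21 and 2.33 on the first arrays of untreated, anisomycin, TNFα and NaCl knock out cells and at -0.85, -0.39, -0.42 and 0.71 on the second arrays. Ctgf was at 2.34, 3.34, 1.91 and 2.70 on the first arrays and at -0.83 (marked), 0.81 (marked), -0.55 and 1.34 on the second. All first arrays thus lay above all second arrays for both genes. The first array exceeded the second by 2.56 ± 0.67 (SD, n = 4 groups) for Ankrd1 and by 2.38 ± 0.75 for Ctgf, which were ranks 2 and 3 of 21689 genes from the highest, and by 1.35 ± 0.69 for Edn1 (rank 20) and 1.18 ± 0.75 for Cyr61 (rank 39). Wisp1 (0.31), Nov (0.13), Thbs1 (0.13) and Wisp2 (-0.37) were inside the range from the 1st to the 99th percentile of all genes, -0.67 to 0.71.

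In the 11 wild type groups the same difference was 0.60 ± 0.64 for Ankrd1, 0.37 ± 0.55 for Ctgf, 0.11 ± 0.64 for Cyr61 and -0.01 ± 0.53 for Edn1, all within the corresponding range of -0.59 to 0.92. The first knock out arrays were scanned together with the second wild type arrays, the first wild type arrays in a batch of their own, and the second knock out arrays in 2 further batches. Within the shared batch, Ankrd1 was higher in knock out than in wild type cells by 2.11 in anisomycin, 1.75 in TNFα and 1.61 in NaCl, and Ctgf by 0.45, 1.45 and 1.63. Between the second knock out and first wild type arrays, which were scanned apart, the differences were -1.93, -1.91 and -0.68 for Ankrd1 and -2.28, -1.48 and -0.18 for Ctgf. Ankrd1 and Ctgf thus had no common direction across the 2 sets of arrays. With scan batch as a term in the fit without marked spots, the average difference of Ankrd1 over the 3 stresses was 1.69 ± 0.31 SE (adjusted p = 0.00355), against 0.16 ± 0.59 SE without the term (adjusted p = 0.892). Only the shared batch held both genotypes, so with the term the genotype difference rests on first knock out against second wild type arrays. The 3 stresses there are not replicates of a genotype, and that p-value does not measure the spread between cultures. Scan batch and replicate culture cannot be told apart among the arrays of either genotype.

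**Figure D5:**
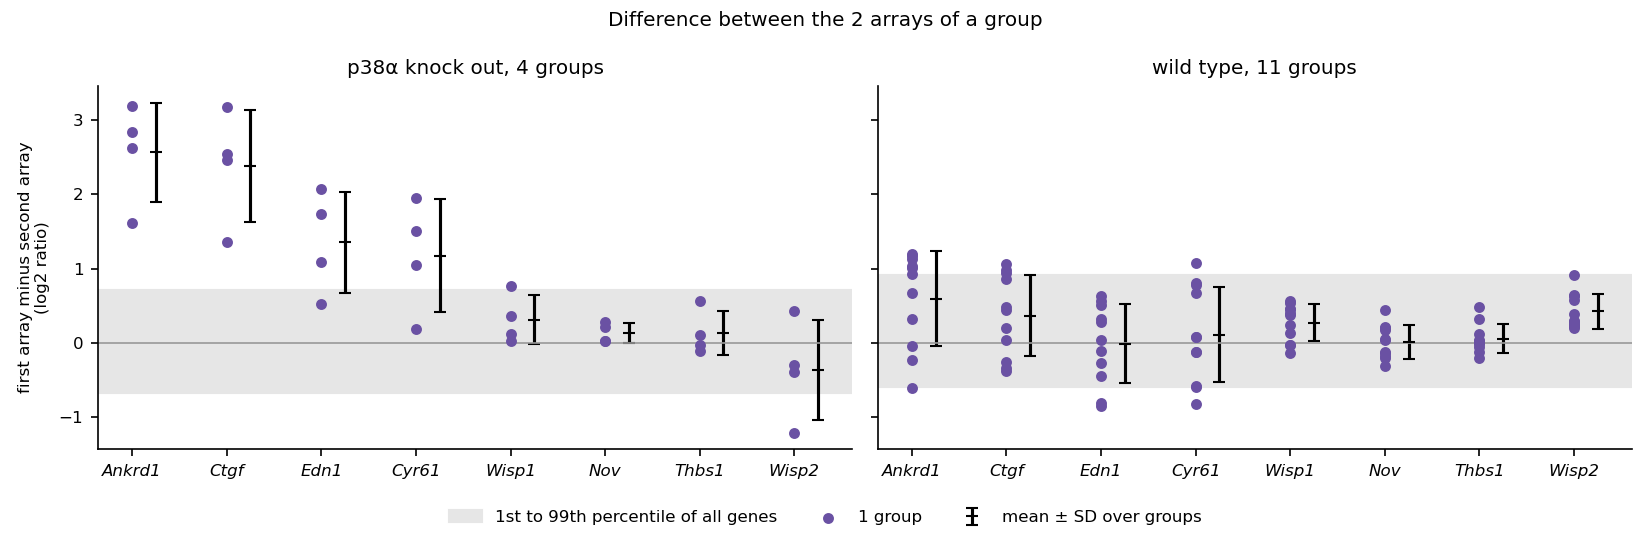
First array minus second array of a group (vertical axis, log2 ratio) for the 8 members (horizontal axis) in the 4 knock out and 11 wild type groups, with 1 point per group, mean ± SD beside the points, and the 1st to 99th percentile of the mean difference of all genes in grey. In knock out cells the means of Ankrd1 and Ctgf are 2.56 and 2.38, against 0.60 and 0.37 in wild type cells.

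Genes of the lists were also compared between first and second knock out arrays. Among the 19 matched SRF/MRTF targets, which code for actin, its partners and other cytoskeletal proteins, 16 were higher on the first knock out arrays (median 0.27, against -0.01 over all genes, of which 48.6% were higher), and Acta1, Actb, Tagln and Zyx lay above the 99th percentile. Of the 23 other YAP/TAZ-TEAD targets 17 were higher (median 0.12), with Amotl2 above the 99th percentile. Of the 13 other matricellular genes 5 were higher (median -0.05), with Spp1 above the 99th percentile, and of the 6 genes of the endothelin system 2 were (median -0.08). In wild type cells the medians of these 4 lists, in the same order, were 0.14, 0.13, 0.01 and 0.06. Mapk14 was also less reduced on the first arrays, by 0.72 ± 0.49 on average. Of the marker lists, 4 of 10 fibroblast, 3 of 4 macrophage, 0 of 4 endothelial, 1 of 4 epithelial and 2 of 5 muscle genes were higher on the first arrays, with medians from -0.34 to 0.05. The part of cell makeup in this difference was not tested.

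The pathway neighbours of the members were read from lists of the same kind. In the fit without marked spots, the share of all genes called higher was 5.72%, 5.25%, 4.69%, 5.24% and 11.0% in anisomycin, TNFα and the NaCl times, and that called lower 6.28%, 5.72%, 5.19%, 4.69% and 11.2%. With them kept, the shares were 6.51%, 6.10%, 5.01%, 7.25% and 10.4% higher and 18.4%, 16.3%, 14.0%, 12.5% and 15.6% lower, and all listed genes had a test. Of 23 other YAP/TAZ-TEAD targets, those with a test in the fit without marked spots numbered 16 in anisomycin, 15 in TNFα, and 14, 19 and 18 over the NaCl times, and 4, 3, 2, 3 and 6 of them rose while none fell. When the spots were kept, 4, 4, 4, 4 and 7 of 23 were higher and 1, 2, 1, 1 and 0 lower, Amotl1 in the first 4 groups and also Jub in TNFα. Their medians without marked spots, 0.16, 0.16, 0.11, 0.16 and 0.30, lay above those of all genes, which were at most 0.01. F3, tissue factor, had 1.24, 1.52, 0.95 and 2.44 in anisomycin, TNFα and the first 2 NaCl times (adjusted p = 0.00669, 0.00175, 0.0323 and 2.08e-05). Foxf2, a forkhead factor of mesenchyme, rose to 1.03 in TNFα (adjusted p = 0.000337) and to 2.82 at 8 h of NaCl (adjusted p = 1.98e-09). Amotl2, a junction scaffold that binds YAP, rose to 1.42 at 2 h of NaCl (adjusted p = 0.00693), and Lats2, a kinase that restrains YAP, to 0.73 in anisomycin and 0.75 at 2 h of NaCl (adjusted p = 0.0428 and 0.0421). Tgfb2, a TGF-β ligand, rose at 8 h of NaCl by 1.28 (adjusted p = 2.2e-06) and lay between 0.54 and 0.57 in the groups of 45 min, where it passed too (adjusted p from 0.00952 to 0.0153). Ddef1, a regulator of Arf proteins at adhesions, rose to 1.16 at 8 h (adjusted p = 0.000384).

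SRF/MRTF targets had few tests in the fit without marked spots, 6, 7, 6, 11 and 10 of 19 in the same order, with 0, 0, 2, 1 and 2 higher and 1, 0, 0, 0 and 1 lower. The fit that kept the spots had 1, 0, 4, 2 and 4 of 19 higher and 3, 3, 3, 1 and 4 lower, the latter Myl9, Tpm1 and Tpm2 in all 3 groups of 45 min, Lmod1 at 2 h, and Actg2, Srf, Tgfb1i1 and Tpm2 at 8 h of NaCl. Among the calls without marked spots, Myh9, a non-muscle myosin heavy chain, rose at all NaCl times by 0.55, 0.58 and 0.59 (adjusted p = 0.0222, 0.0153 and 0.00627). Fhl2, a LIM domain co-activator, rose by 0.73 at 45 min and 0.55 at 8 h (adjusted p = 0.00702 and 0.0151). Tpm1, a tropomyosin, fell by 0.60 in anisomycin (adjusted p = 0.0282), and Tgfb1i1, a focal adhesion adaptor, fell by 0.47 at 8 h of NaCl (adjusted p = 0.023).

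Of 13 other matricellular genes, 12, 11, 12, 12 and 11 had a test in the fit without marked spots, with 1, 1, 2, 2 and 2 higher and 1, 0, 0, 0 and 0 lower. Keeping the spots gave 1, 1, 1, 3 and 3 of 13 higher and 1, 1, 2, 1 and 0 lower, among the latter Wisp3 in each of the first 4 groups. The values that follow are from the fit without marked spots. The largest change was in Spp1, osteopontin, at 3.58 after 8 h of NaCl (adjusted p = 2.63e-06) and 1.45 in TNFα (adjusted p = 0.0183). Thbs2, the close relative of Thbs1, rose by 0.47 in anisomycin and 0.77 at 2 h of NaCl (adjusted p = 0.0168 and 0.000665), where Comp, a pentameric thrombospondin, rose by 0.42 (adjusted p = 0.0209). Fbln5, an elastic fibre protein, rose by 0.74 at 45 min and 0.61 at 8 h of NaCl (adjusted p = 0.00691 and 0.00878), and Sparc by 0.56 at 45 min (adjusted p = 0.0311). Tnc, tenascin, fell by 0.35 in anisomycin (adjusted p = 0.0385). Of the 6 genes of the endothelin system besides Edn1, Ece2, a converting enzyme, fell by 1.15 in anisomycin and 1.29 in TNFα (adjusted p = 0.00633 and 0.00303), and no other change passed in the stressed wild type groups in that fit. In the fit that kept the spots, Ece2 was lower in all 5 groups, Edn3 in anisomycin and TNFα, Ednrb in anisomycin and Ece1 at 8 h of NaCl, and Edn2 was higher in anisomycin.

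In untreated knock out cells, in the fit without marked spots (8.02% of genes higher and 6.96% lower), 2 of 17 tested YAP/TAZ-TEAD targets rose and 2 fell, led by Igfbp3, a binding protein of insulin-like growth factors (-1.16, adjusted p = 0.0299), Tgfb2 (0.87, adjusted p = 0.000409) and Amotl1 (-0.82, adjusted p = 0.0369). None of 10 tested SRF/MRTF targets passed in that fit, whereas with marked spots kept 7 of 19 were lower (Acta2, Actg2, Cnn1, Myl9, Srf, Tpm1 and Tpm2), against 17.2% of genes. Of 11 other matricellular genes 1 rose, Fbln5 (0.53, adjusted p = 0.0294), and 3 fell, among them Postn, periostin (-0.64, adjusted p = 0.0468), and Fbln1 (-0.46, adjusted p = 0.0343). In the endothelin system 3 of 5 tested genes fell, Ece2 by 1.59, the receptor gene Ednrb by 0.48 and Ece1 by 0.41 (adjusted p = 0.000504, 0.0409 and 0.0233), while Edn1 itself was at 1.18 (marked) and -0.89. When the spots were kept, 2 of 23 YAP/TAZ-TEAD targets were higher and 3 lower, 2 and 4 of 13 matricellular genes, and 0 and 4 of 6 genes of the endothelin system.

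The members differed in which genes tracked them over the 15 group means. All groups share the pool and the same batches of arrays, so the correlations below, Pearson's r, only describe these data. Without marked spots, 3 members and 10458 genes had all 15 means. Nov was closest to Krtcap3, 9430087N24Rik and Cap2 (r = 0.92, 0.91 and 0.91), Wisp2 to Gga3, Apg16l and 5330426P16Rik (0.85, 0.85 and 0.84), and the mean of the Thbs1 probes to Zfp36l1, Arl7 and 5330439J01Rik (0.87, 0.84 and 0.84). With marked spots kept, Ctgf and Cyr61 had r = 0.87 with each other, and shared Gm995 (0.94 and 0.92) and A030007L17Rik (0.90 and 0.92) among their 3 closest genes. The other was 2210403K04Rik for Ctgf (0.89) and F830014G06Rik for Cyr61 (0.91). Edn1 was closest to Arl7, Myc and Krt1-c29 (0.91, 0.91 and 0.90), Ankrd1 to Epha2, Srf and Adck1 (0.89, 0.88 and 0.88), and Wisp1 to Ndst4, Slc22a18 and St6galnac3 (0.95, 0.94 and 0.94). For the remaining members the closest genes changed in that fit, to Chrdl1, Pros1 and Igf1 for Nov (0.93, 0.92 and 0.92), E130113E03Rik, 6330579B17Rik and Smarcd2 for Wisp2 (0.85, 0.84 and 0.83), and Myc, Tnfsf18 and Arl7 for Thbs1 (0.87, 0.87 and 0.87), of which Arl7 was among the 3 closest in both fits.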

How the data were processed

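RNA of 30 cultures was amplified in 2 rounds and hybridised to 2-colour Agilent 44K arrays. The authors deposited a scanner table for every array, made with Feature Extraction, whose version is 8.1.1.1 per the file headers and 9.1 in the submitters' processing notes. The deposited LogRatio is the log10 of Cy5 over Cy3 after dye normalization, and it was turned into log2 without further normalization. The deposited intensity values of spots and local background served an alternative fit (normexp with an offset of 50, then loess). The authors' deposited series matrix served another and was taken as log2 ratios. Its r with the scanner ratios was from 0.785 to 0.952, which does not depend on the unit. No column of values was left unmapped (0). Control spots and spots marked as outliers were left out, and probes of a gene were averaged.

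Group means were fitted with limma 3.58.1 in R 4.3.3, 1 mean per group over all 30 arrays (15 residual degrees of freedom), with Benjamini-Hochberg adjustment over all genes with a test and a threshold of 0.05. The steps were tested on simulated data. Other alternatives were keeping marked spots, spots well above background in both channels, the brightest probe, scan batch as a term, only the groups compared, and leaving out each array. Keeping marked spots together with the block, the fits of single Thbs1 probes, leaving out arrays with marked spots kept, and likeness with marked spots kept were added after seeing the data.

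Arrays with the same replicate number deviated together within a genotype. Differences between first and second arrays correlated above 0.1 for 55 of 55 pairs of wild type groups (r from 0.13 to 0.65) and 6 of 6 pairs of knock out groups (0.15 to 0.45), but for 6 of 44 pairs across genotypes. First and second arrays of a genotype were also scanned apart, so the shared difference can be of culture or of scan batch. The block was therefore set within genotype.

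The text names all 8 members, the 3 genes of highest correlation with each, and up to 3 genes of each list with the largest means past the threshold. The members, lists and tests were chosen with earlier results of these data known. Precision is bounded by having 2 arrays in a group. Drawings were made with matplotlib 3.10.9, and tables with Python 3.11.15, numpy 2.4.6, pandas 2.3.3 and data.table (1.17.8).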

Additional observations from a re-analysis of the deposited data

Results flagged for a closer look

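Differences in gain between conditions were found with marked spots kept and the replicate block. The wild type gain is a ratio to the pool, so the shared difference between first and second arrays does not cancel, yet the block takes it out of the error. With marked spots kept and no block, only the higher gain of Thbs1 with SB203580 at 2 h of NaCl passed. The gain of Ctgf in anisomycin was lower in knock out than in wild type cells (-1.67, adjusted p = 0.0296) and lower with than without SB203580 (-2.17, adjusted p = 0.00963), where 2.57% and 3.91% of all genes had a lower gain. The gain of Cyr61 in anisomycin was lower with SB203580 (-2.12, adjusted p = 0.0166). The gain of Thbs1 at 2 h of NaCl, over its 4 probes, was higher in knock out cells (0.70, adjusted p = 0.0346) and higher with SB203580 (0.83, adjusted p = 0.0109), where Thbs1 started below the pool, beside 6.65% and 11.5% of all genes with a higher gain. The probes were uneven, at -0.09 and 0.09 for A_52_P363951 (adjusted p = 0.762 and 0.753), 1.15 and 1.12 for A_52_P337086 (0.0258 and 0.018), 1.27 and 1.73 for A_52_P337092 (0.0576 and 0.012), and 0.47 and 0.40 for A_51_P293401 (0.109 and 0.131). All p-values are from limma with Benjamini-Hochberg adjustment.

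Nov had opposite signs at 2 h of NaCl on every array, with -0.13 and -0.13 from untreated in knock out cells and 0.02 and 0.23 from the pool in wild type cells, a mean difference of -0.25 that did not pass (limma adjusted p = 0.556).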

How the results depend on the processing

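Counts below are calls of a member in a comparison. The share of all genes called moved with the setting too. Where no such share stands beside a count, a higher count cannot be read as a result about the members. For stress alone, 6 calls became 15 with the series matrix, 14 with marked spots kept, 11 with the replicate block, 20 with both of the last, and 0 with only the compared groups in the fit. The tests behind these numbered 29, and 40 with marked spots kept, and with the block the share of all genes called higher moved too, from 5.72% to 11.0% in anisomycin and from 4.69% to 11.1% at 45 min of NaCl. For SB203580 alone, 1 became 0 with the brightest probe or only the compared groups and 2 with marked spots kept and the block. For SB203580 with stress, 0 became 1 with normexp, the series matrix, marked spots kept, spots well above background, the block, the scan batch term or only the compared groups, and 5 with marked spots kept and the block. For untreated knock out cells, 3 became 0 with only the compared groups. For knock out against wild type under stress, 1 became 0 with normexp or only the compared groups, 4 with the series matrix or marked spots kept, 2 with the scan batch term and 6 with marked spots kept and the block. On average over the stresses, 3.91% of all genes were higher at first, 7.65% with marked spots kept and 13.4% with the block added. Within knock out cells, 0 became 3 with the series matrix, marked spots kept, or marked spots kept and the block. For differences in gain, 0 became 1 with the series matrix or marked spots kept and 5 with marked spots kept and the block. In anisomycin with SB203580, 0.347% of all genes had a lower gain at first, 1.56% with marked spots kept and 3.91% with the block added. For NaCl over time, 0 became 2 with the series matrix, marked spots kept, or marked spots kept and the block, and 1 with the block or the scan batch term alone. Between stresses, 0 became 2 with marked spots kept and the block. Leaving out 1 array at a time gave 5 to 7 calls for stress alone, 0 to 1 for SB203580 alone, untreated knock out cells, knock out against wild type and within knock out cells, and 0 to 0 elsewhere. A single array then stands for its group, and it is assumed to vary like the others.

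Of 50 single results, 2 reversed, both without an array: Ctgf in untreated knock out cells without the first array, with marked spots kept (-0.83), and Thbs1 in TNFα without the first array (-0.14, against 0.19, and 0.52 without the second). For Thbs1 the 2 arrays averaged different probes. The first had every probe unmarked, and the second only A_52_P337092 and A_51_P293401 (-0.30 and 0.02). With its marked probes kept, the second array was at 0.20. Over the other settings 197 values kept their direction and side of the threshold, 13 lost and 51 gained a call, and over the arrays left out 186, 40 and 2. With normexp, Nov in knock out against wild type cells was at 0.14 (adjusted p = 0.148) and Thbs1 in untreated knock out cells at -0.36 (adjusted p = 0.0979). Keeping marked spots shifted the median of all genes by 0.10 to 0.14 in differences of gain and by -0.10 with SB203580 alone. The scan batch term could not be fitted against the pool. The cause of these changes was not tested.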
